A study of Homo sapiens with 6 samples.

Results

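The IL-17 receptor signalling components described here are 10 genes: the receptor genes IL17RA, IL17RB, IL17RC, IL17RD and IL17RE, the adaptor genes TRAF3IP2 and TRAF6, the regulators NFKBIZ and ZC3H12A, and the ligand gene IL17C. They were chosen by name, with earlier results of these data known. Y-320 was first described as an inhibitor of IL-17 production by T cells. All 10 were found among the 40295 identifiers of the deposited gene table. The cells were HDQ-P1, an established human breast cancer line, grown in high glucose DMEM with fetal bovine serum. Of the 6 RNA-seq libraries, 3 came from cells given 1 μM Y-320, a phenylpyrazoleanilide, over 48 h, and 3 from cells left untreated, for which no solvent is described. All values are estimated counts per gene made by the authors with kallisto, and the libraries held 21045401 to 22740535 counts. Nothing states that the replicates came from separate cultures, so p-values measure the spread between these libraries, which may be technical.

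IL-17 cytokines are made mainly by T cells and other lymphocytes and act on epithelial cells and fibroblasts. IL-17A and IL-17F signal through a receptor of IL17RA and IL17RC, IL-25 through IL17RA and IL17RB, and IL-17C, which is made by epithelial cells themselves, through IL17RA and IL17RE. The receptors recruit the adaptor ACT1, the product of TRAF3IP2, which engages TRAF6 to activate NF-kB, MAP kinases and C/EBP factors. It also stabilises mRNAs of inflammatory genes. NFKBIZ encodes IkB-zeta, a nuclear cofactor needed for many of the late target genes, and ZC3H12A encodes Regnase-1, a ribonuclease that degrades inflammatory mRNAs and limits the response.

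Promoter sequences, from 250 bases before to 50 bases after a transcription start, were taken from RefSeq on GRCh38.p14, where 8 of the 10 genes matched with 12 entries in all. Both NFKBIZ entries are shown because they were the entries among the 12 with a match to the kB motif, the DNA motif of NF-kB. The upstream entry lies at chr3:101827740-101828039 and the downstream entry at chr3:101849264-101849563, both on the plus strand. Capitals mark the kB match, which begins 223 and 239 bases before the respective start.
NFKBIZ upstream: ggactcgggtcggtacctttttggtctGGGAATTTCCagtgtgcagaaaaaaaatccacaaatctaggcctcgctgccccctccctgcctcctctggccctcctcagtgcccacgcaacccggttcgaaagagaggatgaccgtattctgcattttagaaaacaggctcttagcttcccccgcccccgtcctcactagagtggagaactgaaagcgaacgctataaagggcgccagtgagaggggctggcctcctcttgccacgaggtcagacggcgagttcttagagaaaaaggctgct
NFKBIZ downstream: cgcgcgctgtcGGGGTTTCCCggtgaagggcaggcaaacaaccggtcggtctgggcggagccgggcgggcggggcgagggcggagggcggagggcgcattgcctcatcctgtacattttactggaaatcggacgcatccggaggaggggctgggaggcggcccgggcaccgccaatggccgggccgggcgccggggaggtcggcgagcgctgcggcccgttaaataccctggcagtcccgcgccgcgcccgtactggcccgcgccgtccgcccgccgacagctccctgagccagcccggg

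The promoters of IL17RE (the first of its 2 entries, chr3:9902362-9902661, plus strand) and IL17RC (chr3:9916848-9917147, plus strand) are shown because these adjacent genes changed in opposite directions. They hold no match to the motifs searched and are printed without capitals.
IL17RE: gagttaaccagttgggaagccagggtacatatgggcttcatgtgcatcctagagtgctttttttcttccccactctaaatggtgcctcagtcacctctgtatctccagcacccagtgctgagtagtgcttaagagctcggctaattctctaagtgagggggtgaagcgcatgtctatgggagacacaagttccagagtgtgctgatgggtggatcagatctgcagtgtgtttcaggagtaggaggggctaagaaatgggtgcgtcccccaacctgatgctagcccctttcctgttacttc
IL17RC: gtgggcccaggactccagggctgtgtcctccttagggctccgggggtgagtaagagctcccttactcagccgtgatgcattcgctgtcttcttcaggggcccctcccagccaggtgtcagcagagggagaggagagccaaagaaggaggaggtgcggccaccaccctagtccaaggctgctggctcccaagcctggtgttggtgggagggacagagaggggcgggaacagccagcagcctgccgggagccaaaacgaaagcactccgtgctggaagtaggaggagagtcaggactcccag

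Motifs were searched on both strands, and no match overlapped another. The kB motif was found in 5.91% of all 35116 RefSeq entries of this length. The AP-1 motif TGANTCA was found in 7.71% of them and, among the 12 entries, in 1 of TRAF3IP2. The C/EBP motif TTGCNNAA was found in 10.5% of them and in 1 of IL17RD. A match describes the letters in these windows and does not show that a factor binds.

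Of the 10 genes, 9 passed the filter on low counts, and the quasi-likelihood test of edgeR called 5 of them higher and 2 lower after Y-320 (threshold 0.05 on the adjusted p). The changes were small, with log2 fold changes from -0.44 to 0.38. IL17RC, ZC3H12A, IL17RA, TRAF6 and TRAF3IP2 rose, NFKBIZ and IL17RE fell, and IL17RB and IL17RD did not pass. Among all 16580 genes tested, 51.5% passed, 26.2% higher and 25.4% lower, so a majority of calls is also what the other genes gave. The median log2 fold change was 0.15 over the 9 genes and 0.00097 over all genes tested. The 7 called genes had groups that did not overlap, which was the case for 59.2% of all genes tested. Of all called genes, 63.6% had a smaller absolute change than NFKBIZ, and 11.2% a smaller one than TRAF3IP2. DESeq2, as another test, called 40.3% of genes and kept 2 of the 5 rises, IL17RC and IL17RA. In edgeR's test against a fold of 1.2, passed by 19.9% of genes, IL17RC and NFKBIZ passed, while IL17RE missed the threshold (adjusted p = 0.0649).

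**Figure D1:**
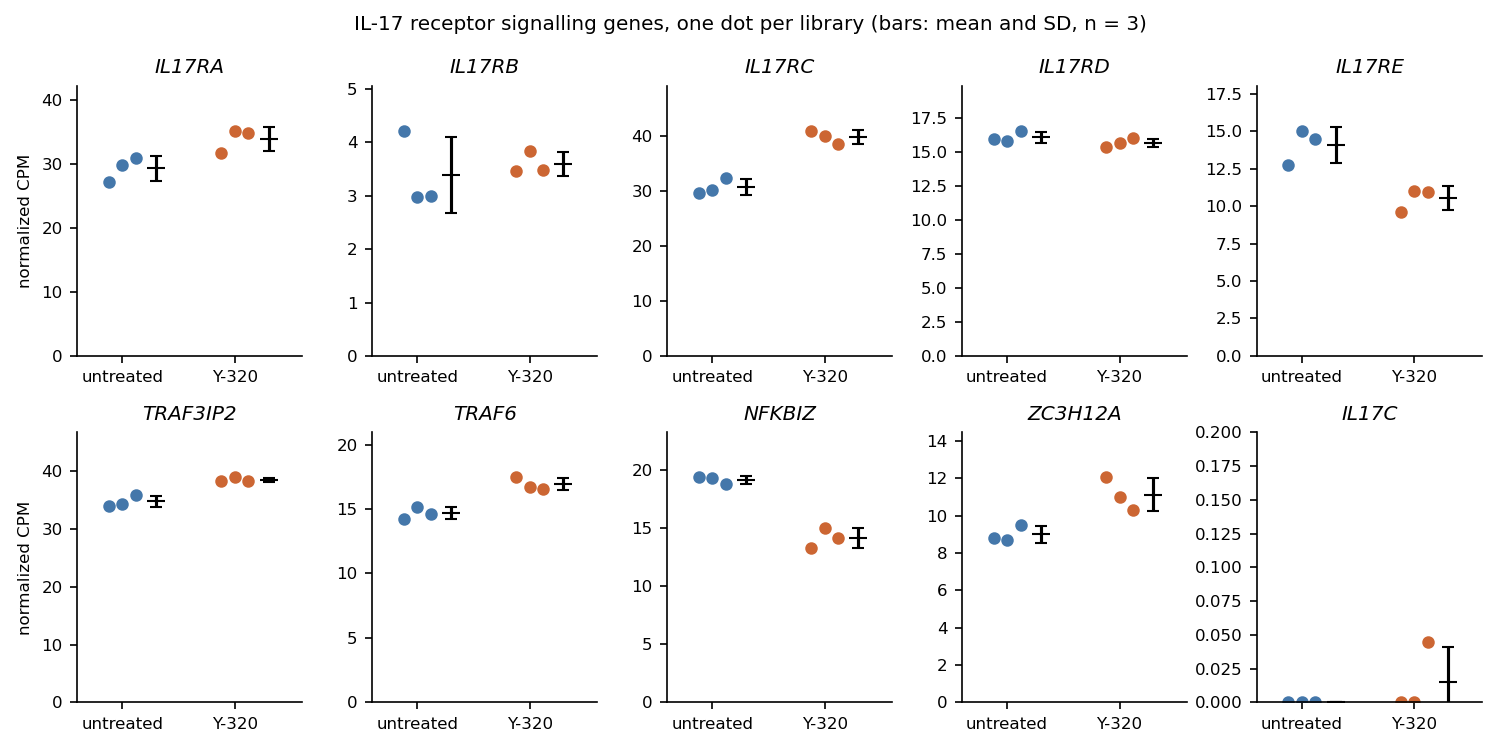
Normalized CPM (counts scaled by depth with TMM, linear axis from 0) of the 10 genes, with 1 dot for each of 3 untreated and 3 Y-320 libraries and the mean and SD beside them. The groups separate for 7 genes, overlap for IL17RB and IL17RD, and IL17C lies at or near 0.

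**Figure D2:**
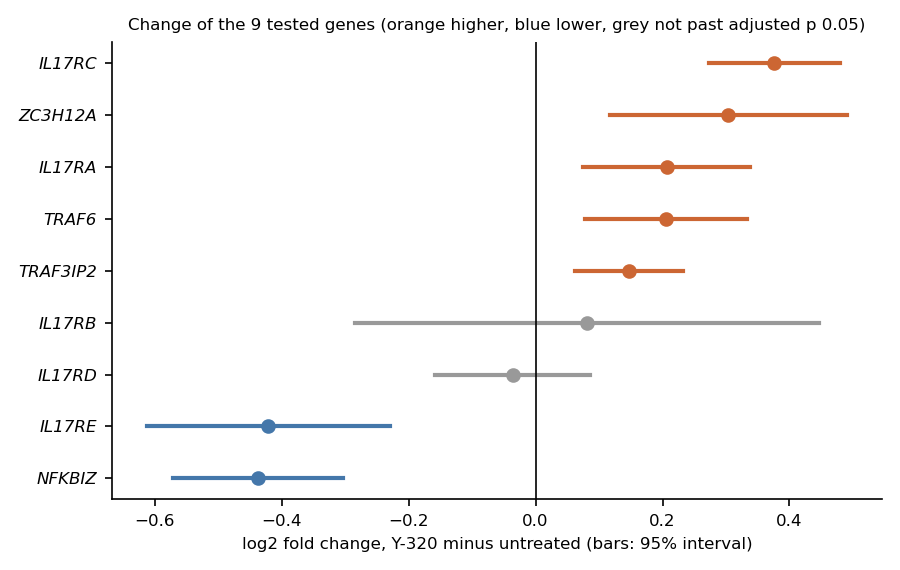
Log2 fold change (Y-320 minus untreated) of the 9 tested genes with 95% intervals from the edgeR fit. The values run from -0.44 for NFKBIZ to 0.38 for IL17RC, and the intervals of IL17RB and IL17RD include 0.

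Among the receptors, IL17RC and IL17RA rose, IL17RE fell, and IL17RB and IL17RD did not pass the test. IL17RC (ENSG00000163702, chromosome 3 from 9917074 to 9933630, plus strand) had 29.5, 30.1 and 32.3 normalized CPM in the untreated libraries, in replicate order, and 40.8, 39.9 and 38.5 after treatment. All treated libraries lay above all untreated ones. The means were 30.6 ± 1.49 and 39.7 ± 1.203 (SD, n = 3 each), so that the log2 fold change was 0.38 (edgeR, SE 0.046 and adjusted p = 6.51e-05). In GENCODE 44, 47.0% of the 31-base words of IL17RC also occur in another gene, mostly in a readthrough gene that runs from IL17RC into the next gene, CRELD1, and that was not analysed here. When only genes with a row in the deposited table were counted, the share was 2.40%. The row of CRELD1 itself rose by 0.51 (edgeR, SE 0.039 and adjusted p = 1.95e-06), and the part of readthrough transcripts in either value was not tested.

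IL17RA, the subunit shared by the IL-17A, IL-25 and IL-17C receptors (ENSG00000177663, chromosome 22 from 17084954 to 17115693, plus strand), had 27.2, 29.8 and 30.97 normalized CPM untreated and 31.7, 35.1 and 34.8 with Y-320. The groups did not overlap, but the highest untreated and the lowest treated library lay close together. The means were 29.3 ± 1.96 and 33.9 ± 1.89 (SD, n = 3 each), and the log2 fold change was 0.21 (edgeR, SE 0.059 and adjusted p = 0.0137). This call was lost without untreated replicate 1, with a log2 fold change of 0.15 (edgeR adjusted p = 0.0545), and without Y-320 replicate 2, with 0.18 (edgeR adjusted p = 0.0536).

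IL17RE, the partner of IL17RA in the IL-17C receptor (ENSG00000163701, chromosome 3 from 9902612 to 9916402, plus strand), had 12.7, 15.02 and 14.5 normalized CPM untreated and 9.59, 11.0 and 11.0 with Y-320. All treated libraries lay below all untreated ones. Its mean went from 14.1 ± 1.19 to 10.5 ± 0.803 (SD, n = 3 each), so that the log2 fold change was -0.42 (edgeR, SE 0.086 and adjusted p = 0.00207). IL17RE ends 671 bases before IL17RC begins on the same strand. Counts per kilobase of exon were 2.06 to 2.39 times as high for IL17RC as for IL17RE in the untreated libraries and 3.61 to 4.39 times as high with Y-320.

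IL17RB, the IL-25 receptor subunit (ENSG00000056736, chromosome 3 from 53846568 to 53865794, plus strand), had estimated counts of 93, 62 and 66 in untreated libraries, against 79, 84 and 77 in treated ones. Untreated replicate 1 was the highest of the 6 libraries, and the other untreated libraries were the lowest. Its log2 fold change of 0.081 had a 95% interval from -0.28 to 0.45 (edgeR adjusted p = 0.713), so a change in either direction within that interval remains possible. Without untreated replicate 1 the value was 0.27, still not past the threshold. IL17RD, which is also known as SEF and restrains fibroblast growth factor signalling (ENSG00000144730, chromosome 3 from 57089982 to 57170306, minus strand), had 15.9, 15.8 and 16.5 normalized CPM untreated and 15.4, 15.6 and 16.0 with Y-320. The groups overlapped, and the log2 fold change of -0.036 had a 95% interval from -0.16 to 0.086 (edgeR adjusted p = 0.652).

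Levels of different genes were compared per kilobase of annotated exon. By normalized CPM per kilobase, IL17RC was the highest receptor in untreated cells at 6.75 ± 0.328, followed by IL17RA at 3.16 ± 0.211, IL17RE at 3.02 ± 0.255, IL17RD at 1.68 ± 0.0420 and IL17RB at 1.11 ± 0.234 (SD, n = 3 each). IL17RA and IL17RE lay within their SD of each other, and the other steps were larger than it. With Y-320 the levels were 8.76 ± 0.265 for IL17RC, 3.65 ± 0.204 for IL17RA, 2.25 ± 0.172 for IL17RE, 1.64 ± 0.0321 for IL17RD and 1.18 ± 0.0718 for IL17RB (SD, n = 3 each).

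As a share of the 5 receptor levels, IL17RC held 42.95% ± 0.769 in untreated cells and 50.2% ± 1.90 with Y-320, and IL17RE held 19.2% ± 1.28 and 12.9% ± 0.835 (SD, n = 3 each). The share of IL17RA was 20.1% ± 0.725 and 20.9% ± 0.909, a difference smaller than the Y-320 SD and slightly larger than the untreated SD. IL17RD held 10.7% ± 0.221 and 9.37% ± 0.222, and IL17RB held 7.12% ± 1.72 and 6.75% ± 0.287. The ratio of IL17RC to IL17RA per kilobase was 2.06 to 2.23 in untreated libraries and 2.265 to 2.64 with Y-320. The order of IL17RA and IL17RE in untreated cells depended on the gene length used: IL17RE was at 0.931 to 1.00 times IL17RA by the union of exons and at 1.43 to 1.54 times by the longest transcript. Both lengths placed IL17RC highest and IL17RB lowest.

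**Figure D3:**
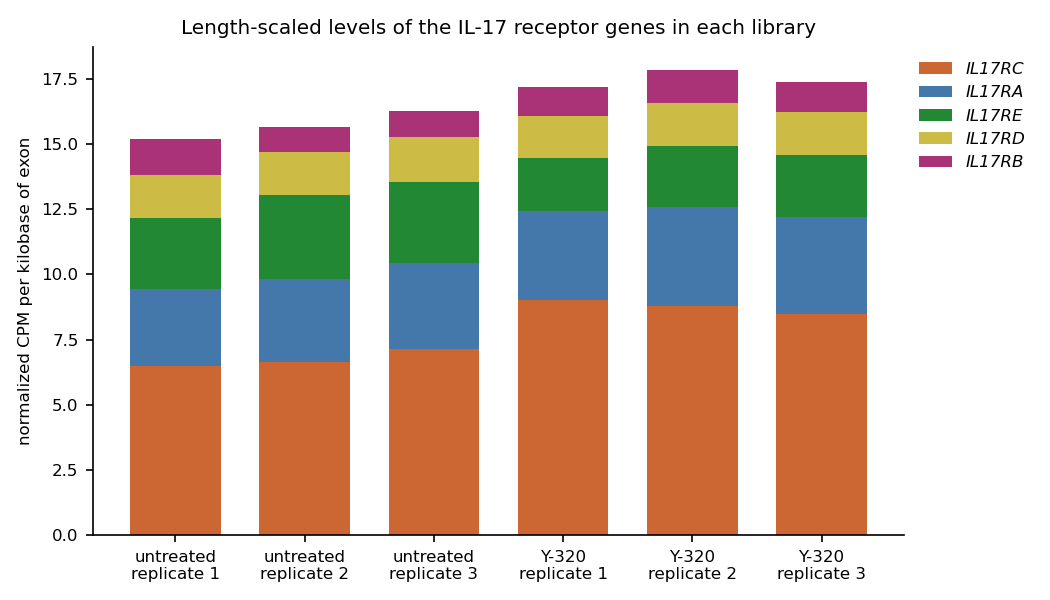
Stacked bars of normalized CPM per kilobase of annotated exon (linear axis from 0) for the 5 receptor genes, with 1 bar per library. IL17RC makes up the largest part of every bar and is larger in the Y-320 libraries, where the part of IL17RE is smaller.

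Both adaptor genes rose slightly. TRAF3IP2, which encodes ACT1 (ENSG00000056972, chromosome 6 from 111555381 to 111606906, minus strand), had 34.0, 34.4 and 35.9 normalized CPM untreated and 38.3, 38.9 and 38.4 with Y-320. The treated libraries lay above the untreated ones and close to each other. The log2 fold change was 0.15 (edgeR, SE 0.038 and adjusted p = 0.00858), and 0.15 with DESeq2 (adjusted p = 0.100), which did not pass. An antisense gene, TRAF3IP2-AS1, overlaps TRAF3IP2 in GENCODE 44 and was not analysed here. Strand use in counting is not given in the sources used here, so reads from the overlap cannot be told apart.

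TRAF6, the ubiquitin ligase that relays the signal to NF-kB (ENSG00000175104, chromosome 11 from 36483769 to 36510272, minus strand), had 14.2, 15.2 and 14.6 normalized CPM untreated and 17.4, 16.7 and 16.6 with Y-320. The groups did not overlap. The log2 fold change was 0.21 (edgeR, SE 0.057 and adjusted p = 0.0119), and it did not pass with DESeq2 (adjusted p = 0.128). Other genes also hold 8.82% of the 31-base sequences of TRAF6, most of all the pseudogene TRAF6P1, whose row held at most 1.04 estimated counts in each library.

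NFKBIZ and ZC3H12A moved in opposite directions. NFKBIZ (ENSG00000144802, chromosome 3 from 101827991 to 101861022, plus strand) had 19.3, 19.3 and 18.7 normalized CPM untreated and 13.3, 14.96 and 14.1 with Y-320. All treated libraries lay below all untreated ones. The means were 19.1 ± 0.341 and 14.1 ± 0.833 (SD, n = 3 each), so that the log2 fold change was -0.44 (edgeR, SE 0.060 and adjusted p = 1.41e-04). With single libraries left out it lay between -0.48 and -0.40. ZC3H12A (ENSG00000163874, chromosome 1 from 37474580 to 37484377, plus strand) had 8.79, 8.68 and 9.51 normalized CPM untreated and 12.04, 11.0 and 10.3 with Y-320. The groups did not overlap, and the log2 fold change was 0.30 (edgeR, SE 0.084 and adjusted p = 0.0115). It did not pass with DESeq2 (adjusted p = 0.0707).

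A list of 8 genes that restrain IL-17 or NF-kB signalling, written from general knowledge, had 5 members higher, 1 lower and 2 not past the threshold, with a median log2 fold change of 0.18. The share called was 75.0%, beside 51.5% of all genes tested. TNFAIP3, which encodes the ubiquitin-editing enzyme A20, rose from 15.9 ± 0.860 to 66.9 ± 2.35 normalized CPM (± SD, 3 libraries each), which is a log2 fold change of 2.07 (edgeR, SE 0.049 and adjusted p = 7.65e-10). TNIP1, a partner of A20, rose by 1.02 and NFKBIA, the inhibitor that holds NF-kB in the cytoplasm, by 0.92 on the log2 scale, while TRAF3 rose by 0.27. TRAF4, which competes with TRAF6 for ACT1, fell by 0.32 on the log2 scale. NFKBIZ, which like NFKBIA belongs to the IkB family, thus lay below its untreated level in the libraries in which the other NF-kB-linked genes plotted lay above theirs. The counts of NFKBIZ, here not scaled by gene length, were 115% to 125% of those of TNFAIP3 in untreated libraries and 19.8% to 23.2% with Y-320.

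**Figure D4:**
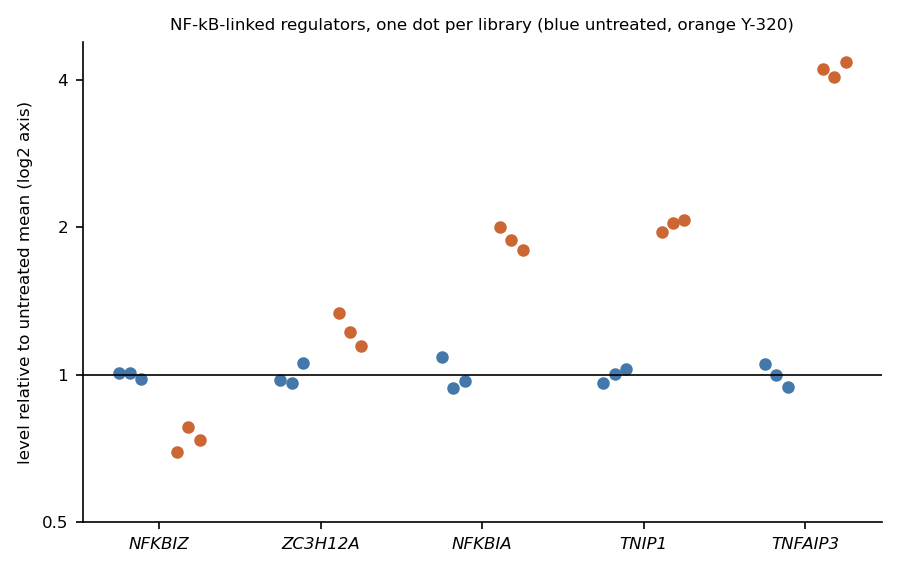
Level of 5 NF-kB-linked regulators relative to the mean of the untreated libraries (log2 axis), with 1 dot per library. NFKBIZ lies at 0.695 to 0.782 in the Y-320 libraries, ZC3H12A at 1.14 to 1.34, NFKBIA at 1.80 to 2.00, TNIP1 at 1.96 to 2.07 and TNFAIP3 at 4.06 to 4.35.

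IL17C, the epithelial ligand among the 10 genes (ENSG00000124391, chromosome 16 from 88638572 to 88640468, plus strand), had 0 counts in all untreated libraries and in Y-320 replicates 1 and 2, and 1 count in Y-320 replicate 3. It was not tested. A count of 0 allows up to 3 counts, or 0.131 to 0.144 CPM in these libraries, a limit that covers counting error only. IL17A and IL17F had 0 counts in all 6 libraries, and IL25 had 1 count, in untreated replicate 3. IL17B had counts of 2, 4 and 4 in untreated libraries, against 1, 0 and 1 in treated ones, and was not tested either.

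IL17D, a family member that is also expressed outside the immune system, was the ligand gene that passed the filter on low counts. It had counts of 132, 118 and 97 in untreated libraries, against 164, 151 and 144 in treated ones, and the groups did not overlap. Its log2 fold change was 0.36 (edgeR, SE 0.12 and adjusted p = 0.0330). The call was lost with DESeq2 (adjusted p = 0.108), without untreated replicate 3, where the log2 fold change was 0.24, without Y-320 replicate 1 (0.33) and without Y-320 replicate 2 (0.36).

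A list of 31 genes, called relay genes here, holds genes that relay the IL-17 signal inside the cell or act on that relay. All were tested, and 14 were higher, 7 were lower and 10 did not pass, with a median log2 fold change of 0.14. The share called was 67.7%, beside 51.5% of all genes (26.2% higher and 25.4% lower). The 4 largest rises were in FOSL1, JUN, FOSB and JUND, 4 of the 5 listed subunits of AP-1, a transcription factor at the end of the MAP kinase branch. The other subunit, FOS, had overlapping groups and a log2 fold change of 0.17 (edgeR, SE 0.11 and adjusted p = 0.222). FOSL1 rose from 12.4 ± 0.670 to 52.8 ± 1.25 normalized CPM (± SD, 3 libraries each), which is a log2 fold change of 2.09 (edgeR, SE 0.049 and adjusted p = 7.65e-10). The log2 fold changes of JUN, FOSB and JUND were 1.63, 1.45 and 1.21. CEBPB and CEBPD, the C/EBP factors that IL-17 induces in epithelial cells, rose by 0.75 and 0.37 on the log2 scale.

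The 4 largest falls among the relay genes were in HSP90AA1, TRAF5, SRSF1 and TBK1. HSP90AA1, a chaperone of ACT1, fell by 0.47 on the log2 scale. SRSF1, a splicing factor displaced from target mRNAs by IL-17 signalling, fell by 0.30 and TBK1, a kinase that phosphorylates ACT1, fell by 0.28. TRAF5, an adaptor of the mRNA stabilising branch, fell by 0.37 (edgeR adjusted p = 0.0210), a call lost with DESeq2 (adjusted p = 0.0574). It was also lost without untreated replicate 1 (log2 fold change -0.30), without untreated replicate 2 (-0.36) and without Y-320 replicate 1 (-0.27).

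Among 34 genes that IL-17 induces in epithelial cells, 17 passed the filter, of which 13 were higher, 1 was lower and 3 did not pass, with a median log2 fold change of 1.00. The share called was 82.4%, beside 51.5% of all genes. Of the higher genes, CXCL2, CXCL3, CXCL8, CXCL10, CSF2 and SAA2 passed the filter only through their counts in the Y-320 libraries. Such genes could hardly be called other than higher, which raises this share and the median. With 10 counts required in every library, which leaves fewer listed genes to test, 7 response genes were higher and 1 was lower. Over all genes, 8459 of the 15496 tested under that filter were called. The study singled out CXCL1, CXCL2, CXCL3, CXCL8 and CXCL10 on these same libraries, so their direction here is not independent evidence. The paper also measured these mRNAs by qPCR and describes the results as very similar. The rest of the list was chosen with earlier results of these data known, so it is not independent evidence either. Without these chemokines, 8 of 12 tested genes were higher and 1 was lower. That is a share called of 75.0%, with a median log2 fold change of 0.56. The higher ones still include CSF2 and SAA2. The cytokine gene IL6 rose from 8.59 ± 0.813 to 24.4 ± 1.55 normalized CPM (± SD, 3 libraries each), which is a log2 fold change of 1.502 (edgeR, SE 0.079 and adjusted p = 1.28e-07). The chemokine genes CXCL10, CXCL8 and CXCL1 had log2 fold changes of 4.70, 3.58 and 1.39. LCN2, which encodes the iron-binding defence protein lipocalin-2, rose by 0.50, and STEAP4, a metalloreductase gene induced by IL-17, fell by 0.41 on the log2 scale. DEFB4A, IL19, CCL7 and MMP3 had 0 counts in all libraries. These 4 genes, CSF2, SAA2 and, elsewhere in the text, CRELD1, FOS and the individual cell type markers were named after their values were seen.

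**Figure D5:**
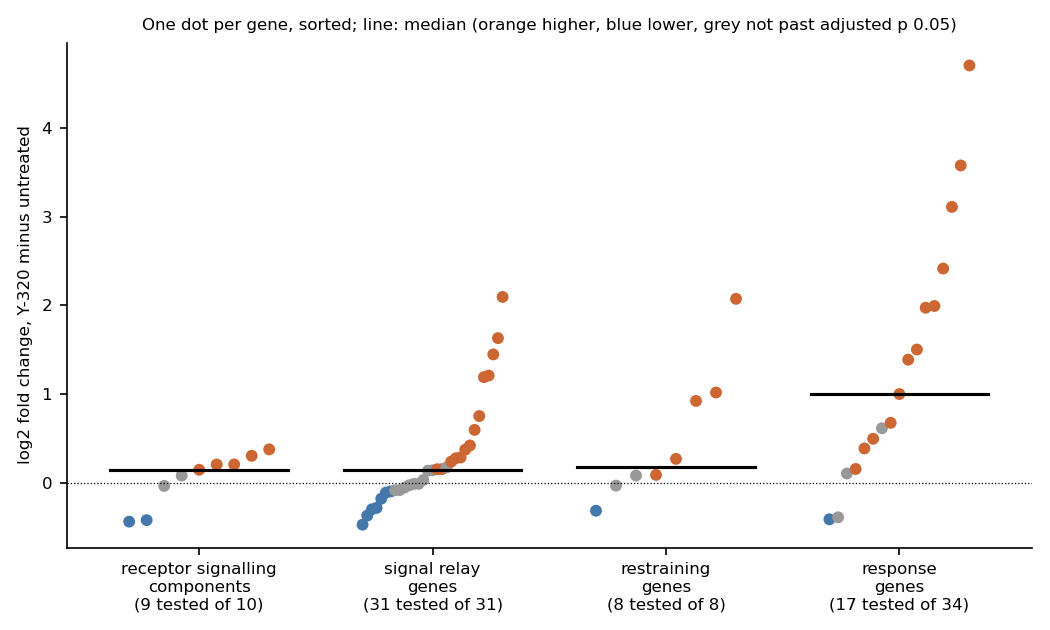
Log2 fold change (Y-320 minus untreated) of each tested gene in the 10 components and in the lists of relay, restraining and response genes, with the median as a line. The components span -0.44 to 0.38 with a median of 0.15, and the response genes reach 4.70 with a median of 1.00. Some response genes, CXCL10 at 4.70 among them, passed the filter only through the Y-320 libraries.

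All libraries came from a single cell line, HDQ-P1, so RNA of a marker need not mean that cells of that type were present. In bulk libraries, fewer cells with a marker and less of its RNA per cell cannot be told apart. Of 8 epithelial markers, 7 were lower with Y-320, while EPCAM rose by 0.38 on the log2 scale. Their share called was 100%, beside 51.5% of all genes tested (26.2% higher and 25.4% lower). Their summed level was high, at 8111 to 8482 CPM untreated and 4860 to 4927 treated. KRT14 alone was weakly expressed, with means of 3.92 CPM untreated and 1.18 CPM with Y-320. Of 8 T cell markers, 1 is not reported here, so the total of the list is not given. The other 7 summed to 1.54 to 2.37 CPM untreated and 2.05 to 2.58 CPM with Y-320. CD4 made up most of this sum, with means of 1.58 CPM untreated and 1.84 CPM with Y-320, and did not pass the test. CD2, CD3D, CD3E and CCR6 had at most 2 counts in each library, CD3G at most 8.14 and IL23R at most 5.14. The 5 fibroblast markers, of which 4 were lower and 1 did not pass, summed to 246 to 271 CPM untreated and 125 to 140 CPM with Y-320. The 4 myeloid markers summed to 6.30 to 6.88 and 13.0 to 15.02 CPM, with 2 higher and 2 not past the threshold. CSF1R, called higher, made up most of both sums, with means of 5.08 CPM untreated and 11.97 CPM with Y-320. ITGAM, also called higher, had counts of 4, 0 and 2 untreated and 13, 17 and 16 with Y-320. It passed the filter on low counts only through the Y-320 libraries, so it could hardly be called other than higher. The markers that did not pass went in opposite directions, with log2 fold changes of 0.55 for CD14 and -0.63 for PTPRC. The relation of these markers to the values of the 10 genes was not tested.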

How the data were processed

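Total RNA of HDQ-P1 cells was sequenced on an Illumina NextSeq 500 in 6 libraries, 3 from untreated cells and 3 from cells exposed to Y-320 (1 μM, 48 h), and the labels give the groups and replicate numbers. The authors deposited estimated counts per Ensembl gene, without normalization. The submitters' processing notes name kallisto 0.46.1 and GRCh38, and the annotation release is not given in the sources used here. The study combined several unnamed pipelines, which could not be repeated. kallisto divides reads that match several transcripts, so genes that share sequence can exchange counts.

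Counts were rounded and matched by identifier to gene names (35390 of 40295). Genes were filtered with filterByExpr of edgeR 4.0.16 (R 4.3.3, minimum 10 counts, 15 in total), libraries were scaled by TMM, and the quasi-likelihood model was fitted without a block, adjusting p by Benjamini-Hochberg over all 16580 genes tested (threshold 0.05). The standard error is the absolute log2 fold change divided by the square root of the F statistic. DESeq2 1.42.0 and limma 3.58.1 (voom) were alternatives. The fit was tested on simulated data. Within a group, the chi-square statistic per degree of freedom between libraries was 2.02 to 2.98, above the value of sampling noise alone. Gene positions, exon lengths and shared 31-base words came from GENCODE 44 on hg38, promoters from RefSeq. Tables and plots were made with Python 3.11.15, pandas 2.3.3 and matplotlib 3.10.9.

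The 10 genes and the lists were chosen with earlier results of these data known. From each list the text names the genes past the threshold with the 4 largest and 4 smallest log2 fold changes and a mean of at least 1 CPM, every ligand, and TNFAIP3, NFKBIA, CEBPB, CEBPD and LCN2. Alternatives were other filters, tests, scalings, unrounded counts, each library left out in turn, blocking on replicate number, a stricter threshold, and a test against a fold of 1.2, added after seeing the data. 1 T cell marker was left out of the text.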

Additional observations from a re-analysis of the deposited data

How the results depend on the processing

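IL17RC and NFKBIZ kept their direction and stayed past the threshold in all 16 alternatives. The 5 higher components became 2 with DESeq2, IL17RC and IL17RA, and 2 at an edgeR adjusted p under 0.01, IL17RC and TRAF3IP2. At that stricter threshold the calls over all genes were 3374 higher and 3166 lower. In edgeR's test against a fold of 1.2 the higher components became 1 and the 2 lower became 1. The calls over all genes in that test became 1828 higher and 1475 lower. That fold test also left 9 higher and 1 lower relay genes and 3 higher restraining genes, with 0 lower (1 at an unadjusted p under 0.05, and 1 with DESeq2). Lower relay genes were 4 with DESeq2 and 3 at an adjusted p under 0.01. The 1 higher ligand, IL17D, became 0 at an adjusted p under 0.01 (edgeR; 1 at an unadjusted p under 0.05), 0 with DESeq2 (1 at an unadjusted p under 0.05) and 0 in the fold test (0 at an unadjusted p under 0.05), and 0 to 1 with each library left out. Higher response genes were 7 under the stricter filter of 10 counts in every library, and 8 without the 5 chemokines, with 1 lower in each case. That filter removes weakly expressed genes, among them those that had passed only through the Y-320 libraries, so fewer listed genes were tested. It left 15496 genes, of which 8459 were called. Leaving out each library gave 4 to 5 higher and 2 lower components, and for IL17RB log2 fold changes from -0.0050 to 0.27. With a replicate block, 5 components were higher and 2 lower, and calls over all genes were 4285 higher and 4159 lower. Same-numbered libraries did not deviate together (correlations -0.031, -0.0027 and -0.0059), so the numbers were not taken to pair them. Other scalings moved the median of all genes to 0.014 and -0.028. With the longest transcript as length, the receptor shares in untreated cells and with Y-320 were 50.4% and 58.5% for IL17RC, 14.8% and 15.2% for IL17RA, 21.6% and 14.4% for IL17RE, 7.97% and 6.94% for IL17RD, and 5.22% and 4.91% for IL17RB. Except where a construction is named, the cause was not tested. Depth limits IL17B, IL17C and IL25, whose counts were at most 4 in each library.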

Other observations

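The region around IL17RE and IL17RC was described after the opposite changes of these adjacent genes had been seen. Of 15 genes with a row within 100 kb of the pair, 13 were tested, the pair included, of which 3 were higher and 3 lower at an edgeR adjusted p under 0.05. The 6 calls include IL17RE and IL17RC, around which the region was placed because of their calls. The count of 6 among 13 genes therefore cannot be compared with the 51.5% called over all genes. Of the higher genes, IL17RC and CRELD1, which follow each other on the plus strand, had log2 fold changes of 0.38 and 0.51, and JAGN1, on the other side of IL17RE, had 0.11. The lower genes other than IL17RE were RPUSD3 and ARPC4, each with a log2 fold change of -0.15. IL17RE had the lowest log2 fold change of the 13 tested genes, at -0.42, in a region placed around it after its fall had been seen.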
